A study of Rattus norvegicus with 232 samples.

Results

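The 10 genes described here, S100a5, Doc2g, Cdhr1, Eomes, Tbx21, Omp, Sp8, Trh, Nmb and Barhl2, are known from the olfactory bulb or are named as its markers, and they were chosen by name as a list. All 10 had a row in the v7.1 RefSeq gene table, which held 20859 genes once spike-in rows were set aside. The question was whether their levels in whole brain differed between inbred strains, or whether they also moved together among animals of the same strain, which share a genotype. The tissue was whole brain of untreated rats, labelled male where a sex was given, which was not the case for every library. The study's methods, which cover HXB/BXH and classic inbred strains but not the FXLE/LEXF animals, describe male rats whose brains were cut sagittally, with a single side sequenced. The animals came from the Hybrid Rat Diversity Panel, which joins divergent classic inbred strains with the HXB/BXH recombinant inbred family (from BN-Lx/Cub and SHR/OlaIpcv) and the FXLE/LEXF family (from F344/Stm and LE/Stm). The table covered 197 animals of 74 strains in 214 libraries, namely 88 animals of 30 HXB/BXH strains, 43 animals of 19 FXLE/LEXF strains and 66 animals of 25 classic inbred strains, counted with the progenitors among the classic strains. There were 3 animals in 54 strains, 2 in 15 and 1 in 5.

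The olfactory bulb is the most rostral part of the brain and sits apart from the hemispheres, to which it is joined by a thin stalk. Axons of olfactory sensory neurons, whose cell bodies lie in the nose, end there in glomeruli on the dendrites of mitral and tufted cells, which carry the signal to the olfactory cortex. Interneurons of the bulb are renewed through adult life by neuroblasts that migrate from the wall of the lateral ventricle. In RNA from a whole brain, fewer cells of a type and less RNA per cell cannot be told apart, and neither can less bulb tissue in a sample.

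Before the members were compared, the libraries were checked against their labels. General brain genes had similar levels everywhere, for example Snap25 (neurons) between 14.97 and 15.78 and Mbp (myelin) between 16.46 and 17.59. The Y-linked gene Eif2s3y was at 9.37 to 9.55 in the 3 LEW/Crl animals and at 9.07 in HXB17/Ipcv 2, against 9.96 to 11.76 in the other 193 animals, and Alb, the serum protein of liver, was at 23.18 in LE/Stm 2 against a median of 11.37. Over 52 genes with a strain share of variance above 0.9, 2 of 192 animals lay closer to the mean of another strain than to their own. LEW/Crl 3 lay closest to the substrain LEW/SsNHsd, with r = 0.88 to its own strain. LEXF2C/Stm 3 lay closest to LEXF9/Stm, with r of only 0.45 to its own strain. Without LEW/Crl and LE/Stm 2, the counts given below were 5 members with a strain effect (5 with them), 7 increasing with Cdhr1 (7) and 4 with a strain effect beside the other members (3). The files give no read counts, so the depth of the libraries is unknown and the number of animals limits the precision. Levels are the deposited values on a log2 scale. For an earlier version of the table the authors applied a regularized log, which shrinks differences of genes at low levels, so a difference of 1 need not stand for a doubling, and S100a5, Tbx21, Omp and Sp8 lay low. Levels are not compared between genes because they are not per length.

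Over all animals, the members were among the most variable genes within strains. S100a5, a calcium-binding protein of olfactory sensory neurons, ranged over the 197 animals from 2.38 through a median of 3.51 to 5.30. Cdhr1, a cadherin-related protein of mitral and tufted cells, ranged from 8.52 through 9.88 to 11.25. Tbx21, a T-box transcription factor of the same cells, ranged from 2.92 through 3.88 to 5.04. Each of these genes thus spanned more than 2 log2 units in one tissue of untreated animals, while the general brain genes Snap25 and Mbp stayed within about 1 unit. The SD between animals of the same strain was 0.51 for S100a5, 0.45 for Cdhr1, 0.40 for Eomes and 0.38 for Tbx21, against a median of 0.16 over all genes. Of all genes, 99.4% had a smaller within-strain SD than S100a5, and the lowest such share among the members was 89.6% for Nmb, which encodes the peptide neuromedin B. In the animals of batches 13 to 20 alone this share was 46.1% for S100a5, 76.9% for Cdhr1 and 79.0% for Tbx21, but 99.0% for Eomes.

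**Figure D1:**
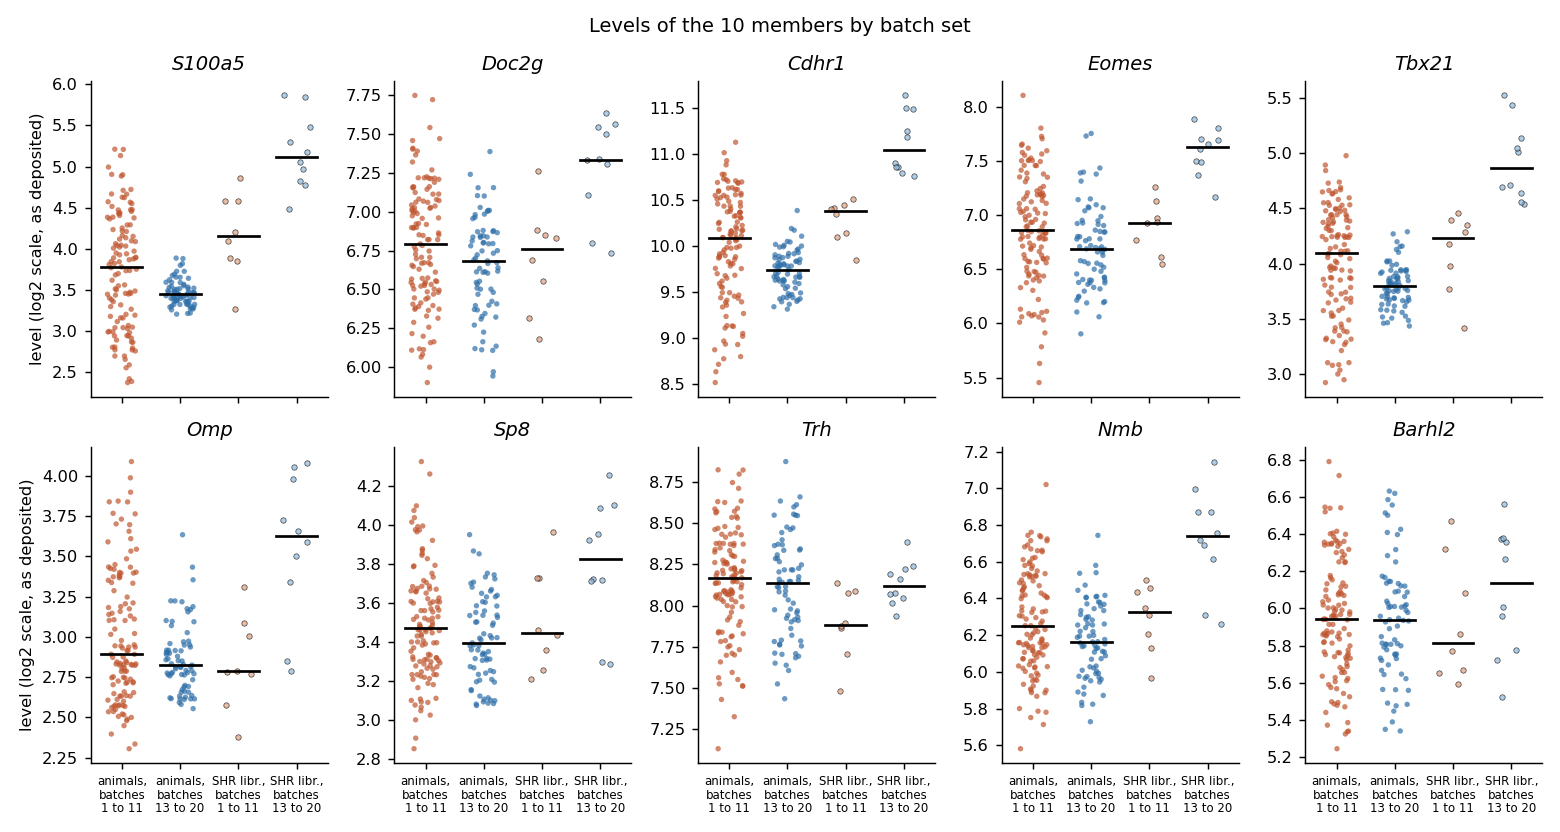
Level of each member (vertical axes, log2 scale as deposited) in animals of strains sequenced in batches 1 to 11 (121) or 13 to 20 (73), and in libraries of SHR/OlaIpcv in batches 1 to 11 (8) and 13 to 20 (10). Points are animals or libraries and bars are medians; S100a5 lay between 3.21 and 3.89 in the 73 animals of the later batches and at 4.49 or higher in the 10 SHR/OlaIpcv libraries of those batches.

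Over all animals, most members rose and fell together within strains, with Cdhr1 and Tbx21 the most closely tied, while in the later batches alone no member passed. With the strain taken out, 7 of the 9 other members increased with Cdhr1 (limma, Benjamini-Hochberg over all genes, FDR 5%), against 0.753% of all genes in the same direction and 0.00479% in the opposite direction. In the 73 animals of batches 13 to 20 fitted alone, 0 of the 9 passed (limma, 0.00959% of all genes, 3 members at an unadjusted p under 0.05). Of these 3, Tbx21 (slope 0.55 ± 0.13 SE, r = 0.54, limma unadjusted p = 0.00012, adjusted p = 0.167) and S100a5 (0.40 ± 0.10, r = 0.53, 0.000198 and 0.18) increased with Cdhr1. Trh decreased (-0.45 ± 0.19, r = -0.34, 0.0202 and 0.397). Over all animals, Tbx21 changed by 0.76 ± 0.03 (SE) per unit of Cdhr1 (limma adjusted p = 2.95e-44) and S100a5 by 0.90 ± 0.06 (adjusted p = 3.27e-26). Doc2g, a C2-domain protein, had a slope of 0.53 ± 0.04, and Omp, the marker protein of mature olfactory sensory neurons, of 0.46 ± 0.05. Eomes, the other T-box factor of bulb projection neurons, had a slope of 0.40 ± 0.07, Sp8, a zinc finger factor of bulb interneurons, of 0.33 ± 0.04, and Nmb of 0.31 ± 0.04. Leaving out every animal numbered 2 reduced the count to 4, without Eomes, Sp8 and Nmb. The 2 members that did not pass were Trh, the thyrotropin-releasing hormone precursor (0.14 ± 0.06, adjusted p = 0.598), and Barhl2, a homeobox factor (-0.11 ± 0.06, adjusted p = 0.934).

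The pairwise correlations of deviations from the strain mean were taken over 192 animals of 69 strains. Cdhr1 and Tbx21 had r = 0.91 and Spearman rho = 0.86, each with a permutation p of 1e-05, the smallest that 100000 permutations within strains can give. Without the 2 animals farthest from the median of Cdhr1, r was 0.90, and with the batch also taken out it was 0.91. S100a5 was correlated with Cdhr1 at r = 0.80 (rho = 0.77, both permutation p = 1e-05, 0.81 without the 2 farthest animals, 0.80 beside batch) and with Omp at r = 0.78 (rho = 0.74, both permutation p = 1e-05, 0.76 without them, 0.81 beside batch). Thus S100a5 and Omp, the members known from olfactory sensory neurons, moved with each other. S100a5 also moved with a gene of the mitral and tufted cells that receive their axons. Further genes of sensory neurons, given below, did not pass with Cdhr1.

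Of the 45 pairs computed, 18 had r above 0.5, and the median was 0.45 (0.44 beside batch). The strain means over 74 strains had a median r of 0.51. Each is a mean of few animals, so it still carries part of the spread between animals. All 8 negative values belonged to Barhl2, from -0.16 with Tbx21 to -0.04 with Doc2g, and the only member with which Barhl2 was positively correlated was Eomes (r = 0.33, rho = 0.32, permutation p = 6e-05 and 0.0002, r = 0.34 without the 2 farthest animals and 0.32 beside batch). Trh was weakly tied to the rest, with a median r of 0.27 over its 9 pairs and its highest value with Sp8 (r = 0.35, rho = 0.33, permutation p = 0.00019 and 0.00023, 0.36 without the 2 farthest animals, 0.33 beside batch). At an unadjusted permutation p under 0.05 there were 35 of 45 pairs. The pairs share members, so they are not separate results, and no share for pairs of other genes is given.

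**Figure D2:**
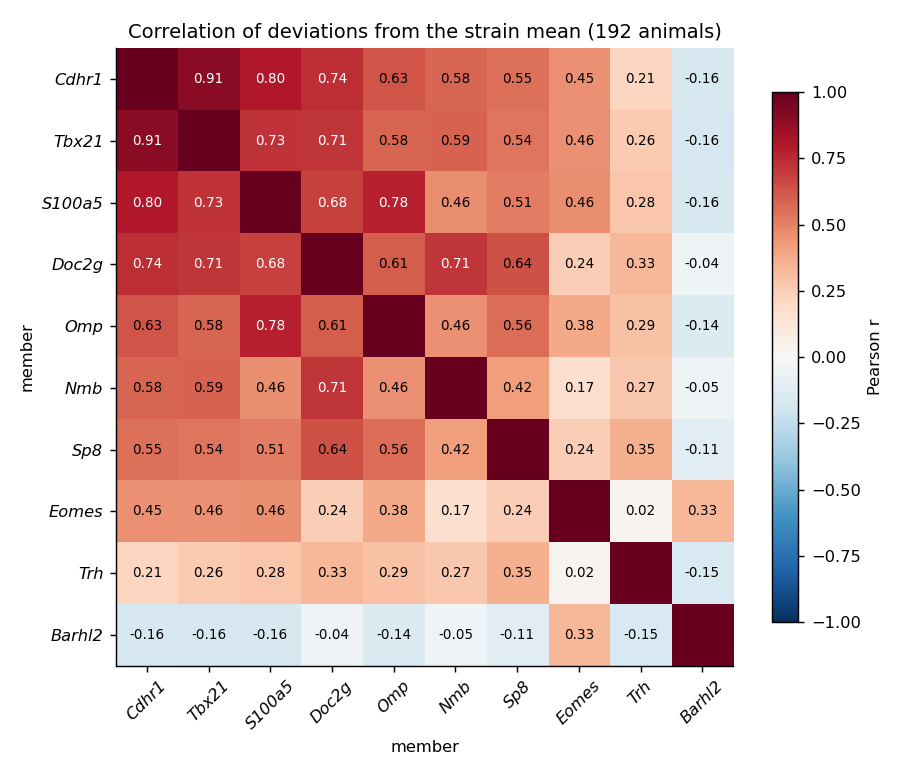
Pearson r of the deviations from the strain mean for each pair of members (both axes), over 192 animals; red is positive and blue negative. The highest value is that of Cdhr1 with Tbx21 (0.91), and the row of Barhl2 is negative except with Eomes (0.33).

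When each member took the place of Cdhr1 in turn, the count of other members that increased with it was 7 for S100a5 (0.671% of all genes), 7 for Tbx21 (0.585%), 7 for Omp (0.719%), 5 for Eomes (3.26%) and 1 for Barhl2 (4.75%). The counts were 8 for Doc2g, 8 for Sp8, 7 for Nmb and 6 for Trh, but there the background was far higher, at 15.3%, 8.29%, 16.1% and 10.3% of all genes in the same direction. No member passed in the opposite direction with any of them, where the background was 14.3% of all genes for Doc2g, 15% for Nmb, 9.78% for Trh, 8.81% for Sp8, 4.66% for Barhl2, 2.77% for Eomes, 0.0767% for Omp and 0.00479% for S100a5, Tbx21 and Cdhr1 alike.

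Because these members moved together, their promoters are given to show the sequence at their start sites. RefSeq promoters (250 bases before to 50 after the annotated start, build GRCr8) were available for 9 of the 10 members, and those of the members with the highest correlations and of the members with a T-box core are shown. The T-box core AGGTGT was searched on both strands, as AGGTGT or ACACCT, with no other motif searched that could overlap it, and matches are in capitals.
S100a5, chr2:178394871-178395170, plus strand: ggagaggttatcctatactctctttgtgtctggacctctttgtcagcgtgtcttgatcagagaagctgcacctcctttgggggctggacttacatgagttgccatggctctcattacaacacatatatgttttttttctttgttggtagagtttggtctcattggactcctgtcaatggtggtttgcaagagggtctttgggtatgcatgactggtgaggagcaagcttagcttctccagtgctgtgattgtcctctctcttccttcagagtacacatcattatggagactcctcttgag
Cdhr1, chr16:12883530-12883829, minus strand: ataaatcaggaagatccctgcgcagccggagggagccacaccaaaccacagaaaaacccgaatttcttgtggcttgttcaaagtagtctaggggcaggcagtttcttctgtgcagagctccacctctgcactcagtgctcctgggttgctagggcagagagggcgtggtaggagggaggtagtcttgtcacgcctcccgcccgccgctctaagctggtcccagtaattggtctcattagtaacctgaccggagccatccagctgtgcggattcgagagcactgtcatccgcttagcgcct
Tbx21, chr10:82595204-82595503, minus strand: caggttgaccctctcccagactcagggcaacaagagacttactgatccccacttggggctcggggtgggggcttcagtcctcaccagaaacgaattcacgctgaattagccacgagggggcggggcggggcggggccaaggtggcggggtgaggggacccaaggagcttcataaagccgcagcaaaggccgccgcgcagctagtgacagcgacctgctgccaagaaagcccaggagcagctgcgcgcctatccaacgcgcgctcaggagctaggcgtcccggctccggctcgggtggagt
Doc2g, chr1:210725578-210725877, plus strand: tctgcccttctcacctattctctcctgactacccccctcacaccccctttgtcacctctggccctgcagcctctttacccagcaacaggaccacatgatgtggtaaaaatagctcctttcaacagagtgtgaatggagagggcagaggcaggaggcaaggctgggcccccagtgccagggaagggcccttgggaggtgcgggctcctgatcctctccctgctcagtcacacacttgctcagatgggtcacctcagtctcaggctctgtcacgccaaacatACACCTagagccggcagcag
Sp8, chr6:145958969-145959268, plus strand: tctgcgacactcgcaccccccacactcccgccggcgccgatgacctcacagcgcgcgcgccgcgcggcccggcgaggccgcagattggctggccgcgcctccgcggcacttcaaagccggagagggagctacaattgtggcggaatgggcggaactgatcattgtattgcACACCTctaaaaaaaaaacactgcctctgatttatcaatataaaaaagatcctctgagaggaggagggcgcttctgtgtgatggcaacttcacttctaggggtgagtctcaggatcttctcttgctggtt
The core was found in 2 of the 9 promoters, as ACACCT at position 30 from the start in Doc2g and at position -80 in Sp8, and in 13.6% of the 33469 promoters of the table. The windows of S100a5, Cdhr1 and Tbx21 did not hold these letters, which says nothing of the factor itself.

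**Figure D3:**
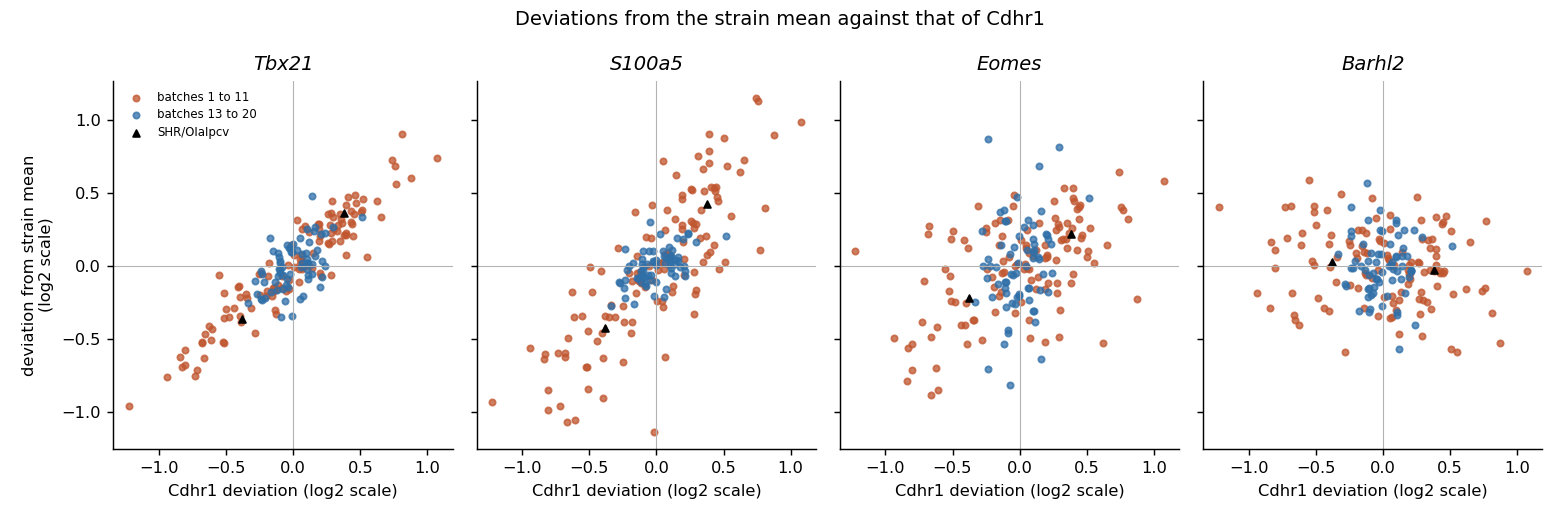
Deviation of Tbx21, S100a5, Eomes and Barhl2 from the strain mean (vertical axes) against that of Cdhr1 (horizontal axes), log2 scale, 1 point per animal, coloured by the batches of its strain, with SHR/OlaIpcv as triangles. Tbx21 follows Cdhr1 (r = 0.91), Barhl2 does not (r = -0.16), and the largest deviations of Cdhr1 and S100a5 belong to batches 1 to 11.

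Animals were ranked by their mean standardized deviation over the 10 members, so the extremes are by construction animals in which most members lie on the same side, and they are given as a description. The 3 animals with the lowest mean deviation were ACI/SegHsd 2, LEW/Crl 2 and WKY/NCrl 2, in which all 10 members lay below the strain mean. All 3 carried batch 10 in the batch characteristic and batch 8 in the title, and these labels differed in 23 libraries of the table, of which none moved across batch 12. In ACI/SegHsd, Cdhr1 was 9.49 in that animal against 10.73 and 10.78 in the other two, and Trh was 7.51 against 8.59 and 8.43. In WKY/NCrl, Cdhr1 was 9.46 against 10.61 and 10.71, and S100a5 was 3.16 against 4.67 and 4.62. In LEW/Crl, one of the strains that stood apart, S100a5 was 3.12 against 4.72 and 4.71. Each of these strains thus held 2 animals close together and 1 far below them, although WKY/NCrl 1 and LEW/Crl 1, which lay high, also carried batch 10 in the characteristic, and ACI/SegHsd 1 and 3, LEW/Crl 3 and WKY/NCrl 1, likewise high, carried batch 8 in the title.

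The 3 animals with the highest mean deviation were HXB1/Ipcv 1, HXB15/Ipcv 2 and BXH11/Cub 1, with 9, 8 and 9 members above the strain mean. S100a5 in HXB1/Ipcv was 4.63, 2.42 and 3.38 in animals 1 to 3, the widest spread of any strain at 2.21. Cdhr1 in HXB15/Ipcv was 9.39, 10.70 and 8.80, and Tbx21 was 3.74, 4.53 and 3.10. In the values given, the named animal was the highest of its strain, and its strain mates also differed from each other. Over all 192 animals, 9 had no member above the strain mean and 8 had all 10 above it.

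The strain comparison asks how much of the variation lies between strains. Of the 10 members, 5 passed the test of a strain effect (limma F test over all genes, FDR 5%), against 37.3% of all 20859 genes. These were Eomes (F = 2.06, adjusted p = 0.00112), S100a5 (F = 1.91, adjusted p = 0.00365), Doc2g (F = 1.81, adjusted p = 0.00739), Tbx21 (F = 1.78, adjusted p = 0.00912) and Cdhr1 (F = 1.72, adjusted p = 0.0138) in this limma fit. Strain accounted for 0.54 of the variance of Eomes, 0.52 of S100a5 and 0.50 of Cdhr1, against a median of 0.45 over all genes. With 74 strains and 123 residual degrees of freedom, a share near that median is reached by the typical gene, so it is not in itself large. The members that did not pass were Omp (adjusted p = 0.0614), Barhl2 (0.0622), Trh (0.0649), Nmb (0.0883) and Sp8 (0.703) in the same limma fit. Strain accounted for 0.34 of the variance of Sp8, and 3.51% of all genes had a smaller share. Leaving out every animal numbered 1, 2 or 3 gave 0, 8 and 0 members, with 15.9%, 14.3% and 29.1% of all genes called. Within families, the limma test called 6 members in the classic strains (19.3% of all genes), Eomes alone in HXB/BXH (19.1%) and none in FXLE/LEXF (4.61%), where 2 members, Doc2g and Trh, had an unadjusted p under 0.05. The 6 were Cdhr1, Tbx21, S100a5, Doc2g, Nmb and Barhl2, with adjusted p from 0.000236 for Cdhr1 to 0.0497 for Barhl2. Every strain but SHR/OlaIpcv lay wholly in the earlier or the later batches, and the classic strains lay in both. The tests over all strains and in the classic strains thus also hold any difference between those sets. Fitted in either set alone, with fewer animals, Cdhr1 (limma adjusted p = 0.124 and 0.133) and Nmb (0.112 and 0.699) were not called. S100a5 and Tbx21 were called in the earlier set, and Doc2g and Barhl2 in the later one.

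The order of the strains was flat, with 1 strain lowest for most members. Among the 54 strains with 3 animals, SR/JrHsd, the salt-resistant Dahl line, had the lowest mean of 9 of the 10 members, all but Doc2g, for which GK/FarMcwi was lowest (6.02 ± 0.10 SD, n = 3) and SR/JrHsd held rank 7. Over all genes, SR/JrHsd was the lowest of these strains for 681 of 20859, or 3.26%. Many members were correlated, so these are not 9 separate results. Among all 74 strains, strains with 1 animal lay lower for Sp8 (LEXF2B/Stm, 3.11), Trh (LE/Stm, 7.53) and Barhl2 (FXLE13/Stm, 5.35). The mean of S100a5 was 2.72 ± 0.31 (SD, n = 3) in SR/JrHsd, 2.88 in the next strain, HXB23/Ipcv, and 4.50 ± 0.68 in the highest, BXH10/Cub. Of the strains with 2 animals, COP/CrCrl lay higher still, at 4.95 ± 0.07 (SD, n = 2), and it also had the highest mean of all 74 strains for Cdhr1 (10.92 ± 0.29), Doc2g (7.37 ± 0.49), Tbx21 (4.68 ± 0.29), Sp8 (3.88 ± 0.13) and Nmb (6.77 ± 0.35). Cdhr1 ran from 8.98 ± 0.32 in SR/JrHsd, through 9.39 in BXH9/Cub, to 10.61 ± 0.07 in HXB13/Ipcv. HXB2/Ipcv, with 2 animals, lay below BXH9/Cub for Cdhr1 (9.33) and beside SR/JrHsd for S100a5 (2.73). Eomes ran from 5.83 ± 0.34 in SR/JrHsd, through 6.24 in HXB27/Ipcv, to 7.70 ± 0.48 in BXH6/Cub, and this lowest step of 0.42 was the only gap between neighbouring strains, in any member, that exceeded the within-strain SD of its gene (0.40).

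At the upper end of these 54 strains, BXH13/Cub was highest for Doc2g (7.22), Tbx21 (4.67) and Sp8 (3.77), HXB22/Ipcv for Omp (3.65), LEXF7B/Stm for Trh (8.52), BXH12/Cub for Nmb (6.62) and LH/MavRrrc for Barhl2 (6.44). No step between neighbours in these orders exceeded the within-strain SD of its gene, except the lowest step of Eomes. There the animals of both strains still overlapped, with SR/JrHsd 2 at 6.11 and HXB27/Ipcv 2 at 6.07. Of the 69 strains with at least 2 animals, 21 had a range over 1 log2 unit in S100a5, 17 in Cdhr1, 12 in Eomes, 11 in Tbx21 and 0 in Nmb. For S100a5 the widest range within a strain was 2.21 and the means of the 54 strains spanned 1.78, but with COP/CrCrl the means ran from 2.72 to 4.95, about as wide. Cdhr1 was 10.09, 10.62 and 8.52 in HXB18/Ipcv, while the means of the 54 strains spanned 1.62.

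**Figure D4:**
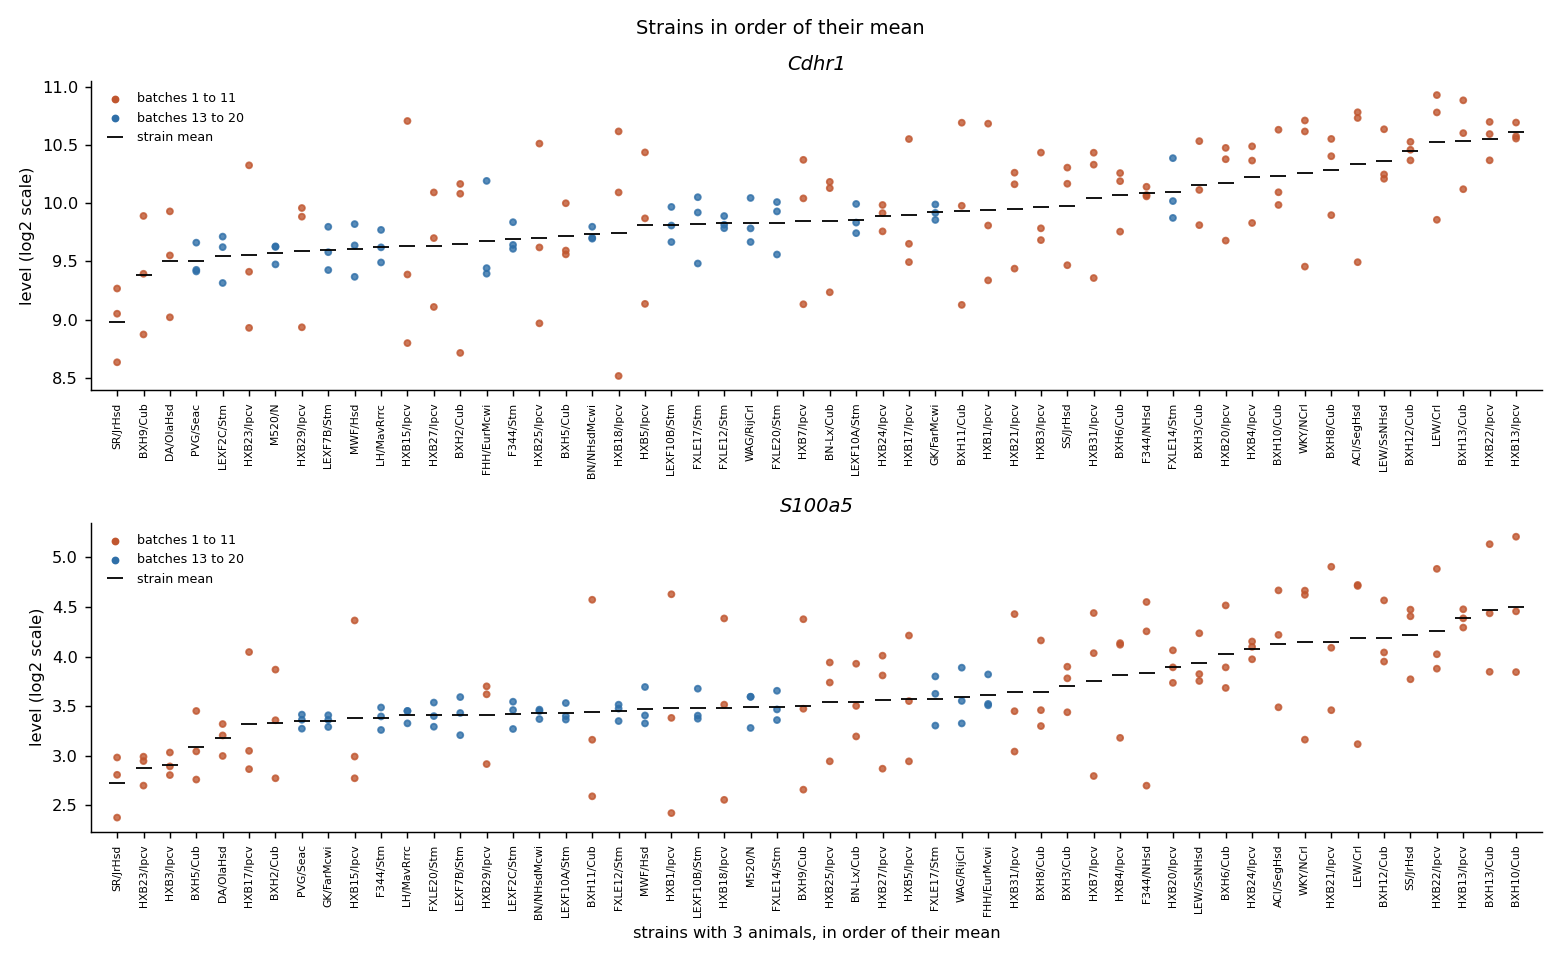
Level of Cdhr1 (top) and S100a5 (bottom) in the 3 animals (points) of each of the 54 strains with 3 animals, coloured by batch and ordered by the strain mean (bars), log2 scale. Strains of batches 1 to 11 hold the widest spreads, and SR/JrHsd is lowest in both (8.98 and 2.72).

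SR/JrHsd and SS/JrHsd, the salt-sensitive Dahl line, were compared directly. S100a5 was 2.81, 2.98 and 2.38 in the 3 SR/JrHsd animals and 3.77, 4.47 and 4.41 in the 3 SS/JrHsd animals, so the groups did not overlap. The difference was 1.49 ± 0.41 (SE, limma adjusted p = 0.0438), and S100a5 was the only member to pass, against 0.988% of all genes. This SE rests on the within-strain SD of S100a5 over all strains (0.51). In batches 1 to 11, which hold both strains, that SD was 0.62, so the SE may be too small here. The pair was not fitted in those batches alone. All 10 members had a higher mean in SS/JrHsd, among them Eomes by 1.01 ± 0.32 (adjusted p = 0.115), Cdhr1 by 0.99 ± 0.36 (adjusted p = 0.205) and Trh by 0.78 ± 0.24 (adjusted p = 0.0911). Cdhr1 was 9.05, 9.27 and 8.63 in SR/JrHsd and 9.47, 10.17 and 10.30 in SS/JrHsd. At an unadjusted limma p under 0.05 there were 8 of 10 members. The share of all genes at that threshold is not given, and many members were correlated, so these are not 8 separate results. With the batch characteristic as a covariate no member passed, and the same was found on leaving out any replicate number.

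Between the progenitors BN-Lx/Cub and SHR/OlaIpcv, 0 of 10 members passed (limma, 4.51% of all genes, 4 members at an unadjusted p under 0.05). S100a5 was 3.20, 3.50 and 3.93 in BN-Lx/Cub and 4.45 and 5.30 in SHR/OlaIpcv, a difference of -1.33 ± 0.46 (SE, limma adjusted p = 0.0718). Cdhr1 differed by -1.03 ± 0.41 (adjusted p = 0.132) and Trh by -0.08 ± 0.27 (adjusted p = 0.908). BN-Lx/Cub was sequenced in batches 3 to 6, but SHR/OlaIpcv 4 in batches 15 to 20, so these differences also hold any difference between batches. In the 8 libraries of SHR/OlaIpcv 1 from batches 1 to 11, S100a5 had a mean of 4.17 and Cdhr1 of 10.28. The means in BN-Lx/Cub were 3.54 and 9.85.

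When the mean standardized level of the other 9 members was added to the strain fit, 3 members still passed, against 34.9% to 35.7% of all genes in these fits. These were Doc2g (F = 2.19, adjusted p = 0.00039), S100a5 (F = 1.99, adjusted p = 0.00199) and Eomes (F = 1.59, limma adjusted p = 0.0354). Cdhr1 (adjusted p = 0.063) and Tbx21 (adjusted p = 0.316), called without this term, were not called with it. The other members accounted for 65.6% of the within-strain variance of Cdhr1, 62.5% of Tbx21, 64.3% of Doc2g and 60.5% of S100a5, but for 20.2% of Eomes, 9.15% of Trh and 1.01% of Barhl2. Doc2g and S100a5 thus shared most of their within-strain variance with the other members and were still called with those members in the fit. As 3 of 10 lies near the share of all genes called, the count is not read as particular to the members. With the batch characteristic as a covariate there were 6 members, where the share of all genes with a strain effect was also higher. Leaving out a replicate number gave between 1 and 4 members. GK/FarMcwi gave an example for Doc2g, with 5.97, 5.94 and 6.13 in its 3 animals, the lowest strain mean, while its Cdhr1 values of 9.86, 9.99 and 9.92 lay near the median of all animals.

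The SD within strains was larger in the earlier than in the later batches of sequencing for S100a5, Cdhr1 and Tbx21. The batch labels left a gap at batch 12, and every strain but SHR/OlaIpcv fell wholly into batches 1 to 11 (42 strains, 121 animals) or wholly into batches 13 to 20 (30 strains, 73 animals), apart from 1 LEXF9/Stm animal whose column matched 2 libraries of that strain, labelled batch 19 and batch 20. This split was chosen after the values had been seen, so the ratios are a description with no test. Within strains, S100a5 had an SD of 0.62 in batches 1 to 11 and 0.15 in batches 13 to 20, a ratio of 4.15. Cdhr1 had 0.54 and 0.20 (ratio 2.70), and Tbx21 had 0.44 and 0.21 (ratio 2.15). The ratio was 1.70 for Omp, 1.42 for Doc2g, 1.32 for Sp8 and 1.21 for Nmb, against a median of 1.05 over all genes.

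The ratio was 1.21 for Barhl2, 1.17 for Trh and 1.02 for Eomes, whose SD was 0.41 in the earlier and 0.40 in the later batches. Of 42 strains in the earlier batches, 21 had a range over 1 in S100a5, 17 in Cdhr1 and 11 in Tbx21, while of 26 strains in the later batches none did in these 3 genes. S100a5 ran from 2.38 through a median of 3.78 to 5.21 in the 121 earlier animals and from 3.21 through 3.45 to 3.89 in the 73 later animals. Cdhr1 ran from 8.52 through 10.09 to 11.13 and from 9.32 through 9.74 to 10.39, so that the later animals filled the middle of the range of the earlier ones.

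The set of batches and the family of strains largely coincided. All 30 HXB/BXH strains lay in the earlier batches and all 19 FXLE/LEXF strains in the later ones, by the batch labels of their libraries, so breeder, tissue collection, sequencing batch and family cannot be told apart there. The classic inbred strains lay on both sides, and among them (12 strains with 33 animals against 10 strains with 29) the ratio was 4.36 for S100a5, 3.65 for Omp, 2.45 for Cdhr1, 1.91 for Tbx21 and 1.59 for Barhl2, again as a description of animals that were part of the split. The other 5 members had ratios from 1.08 for Trh to 1.48 for Sp8, against a median of 1.07 over all genes. Among the genes with a mean level of 3 or higher, S100a5 had the fourth highest ratio of all, and the other genes near the top included the liver genes Cyp2e1 (5.08), Kng2 (4.09) and Apoa1 (3.57), whose part in the result was not tested.

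Fitted separately, the earlier batches gave 7 of 9 members increasing with Cdhr1 (limma, 0.657% of all genes) and the later batches 0 of 9 (0.00959% of all genes, 3 members at an unadjusted p under 0.05). Of these 3, Tbx21 and S100a5 increased with Cdhr1 and Trh decreased. The slopes themselves were not shown to differ between the sets (limma, 0 of 9 members and 0 of all genes, 2 members at an unadjusted p under 0.05), for example 0.77 and 0.55 for Tbx21 and 0.93 and 0.40 for S100a5. For Trh the later minus the earlier slope was -0.63 ± 0.22 (SE, limma unadjusted p = 0.00494, adjusted p = 0.581). The median pairwise r was 0.53 in the earlier and 0.19 in the later batches, where the SD of S100a5 was below the median of all genes while that of Eomes was among the highest. A strain effect was called for S100a5 (limma adjusted p = 0.039), Tbx21 (0.0437) and Eomes (0.000473) in the earlier batches, against 23.9% of all genes, and for Doc2g (0.0199) and Barhl2 (0.0356) in the later batches, against 18.5%.

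Repeat libraries of the same labelled animal also varied. The labels give 12 libraries in 12 batches the name SHR/OlaIpcv replicate 1, 6 libraries replicate 4 of the same strain and 2 libraries BN-Lx/Cub replicate 3, and do not say whether these shared a piece of tissue or an RNA preparation. In SHR/OlaIpcv 1, Cdhr1 ranged from 9.85 through a median of 10.43 to 11.19 and S100a5 from 3.27 through 4.58 to 5.18. The lowest library was that of batch 11 for 8 of the 10 members and the highest that of batch 16 for 9 of them. The ratio of the variance between animals to that between libraries was 1.54 for Cdhr1, 1.25 for Eomes, 0.84 for S100a5, 0.80 for Tbx21 and 0.51 for Omp, with a median of 1.01 over all genes, as a description with no test. Trh had the highest ratio of the members, at 2.27. As 12 of the 20 libraries carry the name SHR/OlaIpcv 1, the ratios were also taken without it, which gave 3.91 for Eomes, 3.34 for Trh, 1.80 for Cdhr1, 1.01 for S100a5, 0.66 for Omp and 1.18 for Doc2g, with a median of 1.34 over all genes. With SHR/OlaIpcv 1 alone the ratio was 0.92 for Eomes, 1.94 for Trh and 1.42 for Cdhr1, with a median of 0.93 over all genes, so that of Eomes rested on which libraries were taken.

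**Figure D5:**
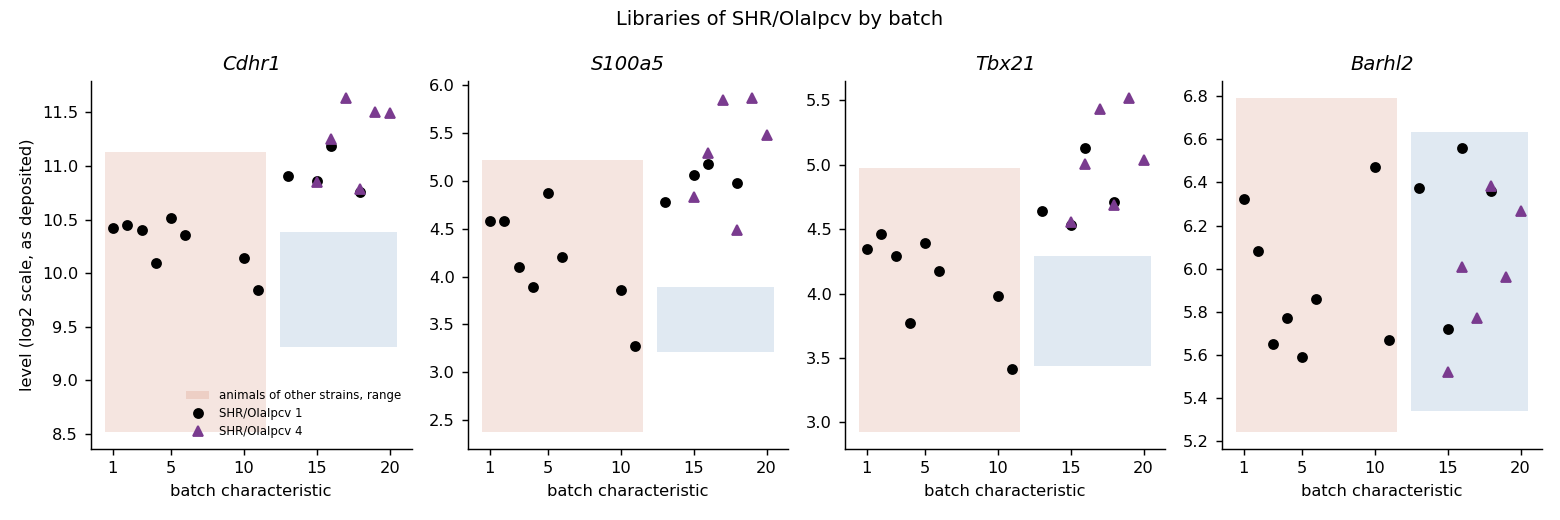
Level (log2 scale) of Cdhr1, S100a5, Tbx21 and Barhl2 in each library of SHR/OlaIpcv 1 (circles) and 4 (triangles) against the batch characteristic. Shaded areas span all animals of strains sequenced only in batches 1 to 11 (red) or only in batches 13 to 20 (blue); all 10 later SHR/OlaIpcv libraries lie above the blue area for Cdhr1, S100a5 and Tbx21, and none does for Barhl2.

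The libraries of SHR/OlaIpcv 1 lay higher on the later side of the gap for all 10 members, although none passed the test. In the 8 earlier libraries of SHR/OlaIpcv 1, Cdhr1 lay between 9.85 and 10.52, and in its 4 later libraries between 10.76 and 11.19, with no overlap. The difference was 0.65 ± 0.12 (SE, limma adjusted p = 0.0979). Eomes was higher by 0.72 ± 0.13 (limma adjusted p = 0.088), and Tbx21 by 0.65 ± 0.18 (adjusted p = 0.311), also without overlap. No member was called in limma, against 0.0144% of all genes higher and 0.024% lower. At an unadjusted limma p under 0.05 there were 7 members, which were correlated, and the share of all genes at that threshold is not given. The animals of other strains had a lower median of Cdhr1 in the later batches (9.74) than in the earlier ones (10.09), the opposite order.

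All 10 later SHR/OlaIpcv libraries, 4 of replicate 1 and 6 of replicate 4, exceeded each of the 73 animals of other strains in those batches for S100a5 (4.49 to 5.87 against at most 3.89), Cdhr1 (10.76 to 11.64 against at most 10.39) and Tbx21 (4.54 to 5.52 against at most 4.29). This held for 36 of 20859 genes (0.173%). For Eomes only 2 of the 10 libraries lay above all 73 animals, and for Trh and Barhl2 none did. In the earlier batches S100a5 in SHR/OlaIpcv 1 (3.27 to 4.87) lay within the range of the other animals.

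Where both SHR/OlaIpcv replicates were sequenced in the same batch, Cdhr1 and Tbx21 were close. Cdhr1 was 10.86 and 10.85 in batch 15, 11.19 and 11.25 in batch 16, and 10.76 and 10.79 in batch 18, against a median difference of 0.45 over 21 pairs of SHR/OlaIpcv 1 and 4 from different batches among 13 to 20, a set chosen after the data were seen. Tbx21 differed by 0.02 to 0.12 within a batch, against a median of 0.40, and S100a5 by 0.12 to 0.49, against 0.57. This did not hold for every member, since Sp8 differed by up to 0.54 within a batch, against a median of 0.36, and Barhl2 by up to 0.55, against 0.40. Over 10429 genes, the SD of the difference between SHR/OlaIpcv 1 and 4 was 0.09, 0.20 and 0.17 within batches 15, 16 and 18. For 150 pairs of SHR/OlaIpcv libraries from different batches it was 0.11 to 0.56. Those pairs include libraries of the same replicate and libraries on both sides of the gap, so they are not a like set. The level of SHR/OlaIpcv 1 was not shown to follow the other animals of its batch, but the comparison could hardly show it. Deviations from the strain mean lose any shift shared by the animals of a strain, and the batch means of Cdhr1 spanned only -0.13 to 0.03. Over 11 batches, the level of Cdhr1 in SHR/OlaIpcv 1 was correlated with the mean deviation of the other animals at r = -0.16 (permutation p = 0.637, rho = -0.08, p = 0.818, r = 0.15 without the 2 farthest batches). For the other members r was between -0.55 (Barhl2, permutation p = 0.0865) and 0.09 (Sp8, p = 0.798) in the same comparison. These bounds rested on few batches, since without the 2 farthest batches r was -0.82 for Barhl2 and 0.51 for Sp8. No member was called between batches once strain was taken out (limma F test, 0 of 10 also at an unadjusted p under 0.05, 1.7% of all genes). With strain in the fit, batches 1 to 11 and 13 to 20 are linked through SHR/OlaIpcv alone. This test could therefore hardly show a difference between those sets.

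No member was called between the 3 families over strain means (limma, 0% of all genes, 0 members at an unadjusted p under 0.05). In the v5 table, which held 30 HXB/BXH and 15 classic strains and none of FXLE/LEXF, S100a5, Doc2g and Barhl2 were called of 7 members with a row (limma), against 49.3% of all genes. S100a5 was 3.51 ± 0.13 (SD of strain means, n = 19) in FXLE/LEXF, 3.66 ± 0.46 (n = 30) in HXB/BXH and 3.73 ± 0.53 (n = 25) in the classic strains, and Cdhr1 was 9.77 ± 0.19, 9.95 ± 0.33 and 9.94 ± 0.48. For both genes the SD of strain means was smallest in FXLE/LEXF, whereas for Barhl2 it was largest there (0.28, against 0.20 in HXB/BXH and 0.22 in the classic strains). The median pairwise correlation within strains was 0.60 in the classic strains, 0.40 in HXB/BXH and 0.14 in FXLE/LEXF. The slope on Cdhr1 was not shown to differ between the families for any member (limma, 0% of all genes, 2 members at an unadjusted p under 0.05), the smallest adjusted p being that of Eomes at 0.289, with slopes of 0.86 ± 0.14 in the classic strains, 0.27 ± 0.08 in HXB/BXH and 0.17 ± 0.34 in FXLE/LEXF.

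Genes of other cells and regions were then followed against Cdhr1 within strains, as counts. Of 16 further genes of bulb interneurons and neuroblasts, 8 increased with Cdhr1 and none decreased (0.753% and 0.00479% of all genes), with a median r of 0.30 over the list, against -0.01 over all genes. The 8 were the homeobox genes Dlx1 (r = 0.69), Dlx6 (r = 0.38), Dlx5 (r = 0.34) and Meis2 (r = 0.55), the neuroblast gene Dcx (r = 0.61), Tshz1 and Synpr (r = 0.49 each) and Prokr2 (r = 0.41), a receptor on migrating neuroblasts. Th, the enzyme of dopamine synthesis in periglomerular cells, had r = 0.08 (limma adjusted p = 1). Of 9 further mitral and tufted cell genes with a row, Shisa3 alone increased (slope 0.44, limma adjusted p = 7.34e-28), and the median r of that list was -0.07. Many of these genes are also expressed elsewhere in the brain, such as Slc17a6 (vesicular glutamate transporter, r = -0.10) and Reln (r = 0.21).

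None of the genes of the remaining lists passed in either direction with Cdhr1, which in short lists is close to the background of 0.753% of all genes increasing and 0.00479% decreasing, and nothing is read from it. This covered 8 further genes of olfactory sensory neurons, among them Stoml3 (r = -0.12) and Gnal (r = 0.05), 3 of nasal epithelium, 10 of anterior olfactory and piriform cortex (median r 0.07), and lists for striatum, cerebellum, hypothalamus, hindbrain Hox genes, pituitary, choroid plexus, meninges, blood, general brain cells and liver, with medians from -0.17 for blood to 0.08 for liver. Of the other sensory neuron genes, Rtp2 and Stoml3 had low mean levels (1.15 and 2.96), and Gnal and Adcy3, which are also expressed outside the olfactory system, had high ones (11.61 and 10.92). In the 3 lowest animals, the mean deviation of the interneuron list was -0.22, -0.24 and -0.05 in ACI/SegHsd 2, LEW/Crl 2 and WKY/NCrl 2, and that of the general brain cell list was -0.02, -0.03 and 0.02. The -0.24 of LEW/Crl 2 was the lowest value of the interneuron list in any animal. In the 3 highest animals, HXB1/Ipcv 1, HXB15/Ipcv 2 and BXH11/Cub 1, the interneuron list deviated by 0.08, 0.08 and 0.09 and the brain cell list by -0.16, -0.04 and 0.03, the first of these near the lowest of all animals (-0.17). Blood genes deviated by 0.06, 0.43 and 0.21 in the 3 lowest animals and by -0.39, -0.41 and 0.07 in the 3 highest. Choroid plexus genes deviated by 0.51, 0.23 and 0.18 in the 3 lowest animals, the first of these near the highest of all animals (range -0.60 to 0.53). In the 3 highest animals they deviated by -0.10, -0.08 and 0.05. Cerebellum genes deviated by -0.29, -0.32 and -0.19 in the 3 lowest animals and by -0.31, -0.09 and -0.26 in the 3 highest. They were thus below the strain mean at both ends, within their range over all animals (-0.57 to 0.59). The part of these lists in the result was not tested.

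Outside the members, the genes of above-median level with the most similar pattern, by the mean r of their within-strain deviations with the members over 192 animals, were Cacng5 (0.48), Myo16 (0.43), Gng4 (0.42), Ptpro (0.38), Pbx3 (0.37), LOC100912227, Tshz1, Pcp4l1, Map3k1 and Pcbp3 (0.34 to 0.35). Over strain means the leading genes were Myo16 (0.50), Cacng5 (0.50) and Svil (0.49). At any level, chosen after the values were seen, the genes closest to Cdhr1 were Ms4a15 (r = 0.94), Frmd7 (0.90), Frzb (0.83), Cpa6 (0.82), Shisa3 (0.82) and Trdn (0.81). Ms4a15 was thus as close to Cdhr1 as Tbx21, and its spread was also larger in the earlier batches (ratio 2.41), as was that of Frmd7 (2.11) and Gng4 (2.06), a G protein subunit.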

How the data were processed

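Total RNA depleted of ribosomal RNA was sequenced from whole brain. The deposited values are on a log2 scale. For an earlier version of the tables, the authors removed ribosomal reads, aligned to strain-specific genomes, estimated counts with RSEM, filtered samples, removed 1 factor of unwanted variation and applied a regularized log transformation. For v7.1 these steps are not given in the sources used here, and the submitters' processing notes name cutadapt 1.9.1, Bowtie2 2.3.4.3 and 2.4.5, HISAT2 2.1.0 and 2.2.1, StringTie 1.3.5 and 2.2.1, RSEM 1.3.1 and 1.3.3, and DESeq2. Removing such a factor can also remove variation that many genes share. The depth of each library is unknown.

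The v7.1 RefSeq table was used, without 73 spike-in rows and with no filter on low values. Libraries of the same strain and replicate number were averaged and counted as 1 animal. Models were fitted to all 20859 genes with limma 3.58.1 in R 4.3.3 (moderated F or moderated contrast, Benjamini-Hochberg, FDR 5%). The fits were strain alone, strain with Cdhr1, strain with the mean of the standardized other members, strain with batch, and family over strain means. Correlations used deviations from the strain mean, permuted 100000 times within strains (scipy 1.17.1). Named genes were the 10 members, fixed lists of other cells and regions, the genes most correlated with the members, and the extreme strains and animals. Members and lists were chosen with earlier results of these data known. Counts at an unadjusted p under 0.05 are given for the members only, without the share of all genes at that threshold. The labels number replicates without stating that each is a separate animal, so p-values measure only the spread between these samples. The v5 and v6 tables, batch covariates, left-out replicates, libraries and genes, and other variance settings were tried as alternatives. The fits were tested on simulated data. Tables of transcripts, reconstructed genes and the authors' strain means were not used.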

Additional observations from a re-analysis of the deposited data

How the results depend on the processing

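The strain effect (5 of 10 members) and the increase with Cdhr1 (7 of 9) kept counts within 1.5 times under the batch covariates, the first library of each animal, the v6 table, limma with trend and robust settings, and without the libraries that stood apart, HXB17/Ipcv 2 or SHR/OlaIpcv, the last 2 chosen after the data were seen. No member was called between batches with the batch of the title, without the libraries that stood apart or with the replicate block. Leaving out every animal of a replicate number gave 0 to 8 members with a strain effect, 4 to 7 increasing with Cdhr1, 1 to 4 with a strain effect beside the other members (3 in the full data), 0 to 0 between SS/JrHsd and SR/JrHsd (1 in the full data), and a median pairwise r of 0.34 to 0.52 (0.45 in the full data, 0.36 in v6). Fewer animals were fitted there. Restricting the test to genes with a mean above the table median left Cdhr1 as the only member, with a strain effect for 1, and 0 beside the other members and between SS/JrHsd and SR/JrHsd, and gave no value for the increase with Cdhr1. With Barhl2 in place of Cdhr1, 1 member increased. Members with a strain effect beside the other members numbered 6 with the batch characteristic, 5 with the batch of the title, 5 of 7 in v5 and 5 of 8 in v6. Between SS/JrHsd and SR/JrHsd, 0 passed with either batch covariate and in v6, and 4 in v5, and between families 3 passed in v5, which compares HXB/BXH with 15 classic strains and holds no FXLE/LEXF strain (49.3% of all genes called). The cause was not tested. The share of all genes with a strain effect was 37.3%, 60.9% with the batch characteristic, 63.6% in v5 and 32.3% in v6.

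Between BN-Lx/Cub and SHR/OlaIpcv, where no member was called, differences turned positive in v5 for Doc2g (0.0044), Eomes (0.0209), Trh (0.33), Nmb (0.0256) and Barhl2 (0.36), and in v6 for Barhl2 (0.0496). Leaving out replicate numbers gave -0.19 to 0.0286 for Trh, against -0.08 in the full data. The replicate numbers do not pair the animals, since deviations of same-numbered animals of different strains had a mean correlation of 0.013 against -0.0063 for other pairs, and 69 of 192 animals correlated best with their own number. With the replicate number as a block there were 5 members with a strain effect, 7 with Cdhr1, 3 beside the other members and 1 between SS/JrHsd and SR/JrHsd, and the median pairwise r was 0.44. Genes with low levels, S100a5 among them, have no known depth behind their values.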

Other observations

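The 36 genes for which all 10 SHR/OlaIpcv libraries of batches 13 to 20 lay above each of the 73 animals of other strains in those batches were not all bulb genes. Among those not correlated with Cdhr1 within strains were Ins2, an insulin gene (r = -0.01), the collagen gene Col3a1 (r = 0.02), Kdr, a receptor for vascular endothelial growth factor (r = 0.05), and the chemokine gene Cxcl12 (r = -0.02). They were chosen after their values were seen. In 21 genes the same libraries lay below each of those 73 animals.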
